A study of Homo sapiens with 24 samples.

Results

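A set of 10 genes of the autophagy machinery was followed in 3 human breast carcinoma lines that carry the estrogen receptor (ER+). They are SQSTM1, NBR1, MAP1LC3B, GABARAPL1, ULK1, BECN1, ATG2A, WIPI1, ATG5 and ATG7. The genes were picked by symbol, with earlier results of these data known, and all 10 were among the 18889 genes of the deposited table. HCC1500, ZR-75-30 and MDA-MB-175 cells were kept for 48 hours in serum-free medium with 5 mM glucose, called low glucose (LG) and used as the control, or with 25 mM glucose, called high glucose (HG) and used to model hyperglycemia. All cells had first been conditioned in low glucose medium. Each of the 6 groups held 4 replicates, giving 24 RNA-Seq libraries, and none of the labels names an osmolarity control. The labels do not say whether replicates were separate cultures, so p-values measure the spread between these samples, which may be technical. Each line is a single model of its tumor type.

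Autophagy encloses cytoplasm in a double membrane, the autophagosome, and delivers it to lysosomes for breakdown. The ULK1 kinase complex starts the process, a PI3-kinase complex built around Beclin 1 (BECN1) marks the forming membrane with PI3P, and WIPI1 and ATG2A act on that membrane. ATG7 and ATG5 belong to the conjugation enzymes that attach ATG8 family proteins, among them MAP1LC3B and GABARAPL1, to the membrane, where receptors such as p62 (SQSTM1) and NBR1 tether cargo. SQSTM1 and MAP1LC3B proteins are themselves degraded by autophagy, and the pathway is known as a response to nutrient shortage. The values here are messenger RNA levels. They measure neither the proteins nor the rate of autophagy, and in bulk RNA a change in the number of expressing cells and a change of RNA per cell cannot be told apart.

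Values are normalized read counts, in which the whole reads of a gene were divided by 1 factor for each sample. Group means are given ± SD of 4 replicates and log2 changes or differences ± SE. Libraries held between 9140024 and 17998819 reads, and 1 read was worth 0.3176 to 0.7635 units. A count of 3 reads, taken as the floor of detection, came to 0.95 to 2.29 units and covers counting error only. The third high glucose library of HCC1500 (HG3) stood apart from the rest. In it 23.91% of genes deviated from the other libraries of the group by over 1 log2 unit, against at most 1.74% in any other library, so the changes in HCC1500 and the comparisons with its high glucose group are given with and without it. Low glucose libraries of HCC1500 were deeper than its high glucose libraries. Values summed to 7319781 units in HG3, against 5559394 to 5604083 in the other high glucose libraries of HCC1500. The totals were 5639413 to 5716906 in its low glucose libraries, 7225346 to 7594840 in ZR-75-30 and 6023522 to 6339651 in MDA-MB-175. Comparisons of HG3 with its group, and of lines with each other, therefore depend on the scaling. TXNIP, which is induced by glucose and served as a check of the labels, was higher in high glucose in all 3 lines by limma (change of 1.02 log2 units in HCC1500 and 0.99 without HG3, 0.76 in ZR-75-30 and 0.39 in MDA-MB-175). All 8 luminal epithelial markers were present, with summed values between 30778 and 64553 in each library, whereas 7 of 12 markers of other cell types were in the table and summed to between 120 and 269, of which COL1A1 was the largest, while PTPRC, CD3E, PECAM1, KRT5 and KRT14 were not analysed here. The luminal gene CDH1 was low in ZR-75-30, with means of 55.6 in low and 56.5 in high glucose. Its low glucose means were 6499 in MDA-MB-175 and 8223 in HCC1500. Some of the markers moved with glucose. In ZR-75-30 the luminal sum was 49036 to 53679 in low and 34942 to 40806 in high glucose, without overlap. Of its 8 genes 5 were called lower there, among them the keratin KRT19 (-0.75 log2 units), and 1, EPCAM, was called higher (0.22). The macrophage and lysosomal gene CD68 had a mean of 5.66 in low and 37.7 in high glucose there. ACTA2, a smooth muscle actin, went from 6.57 to 26.7 in ZR-75-30 (limma adjusted p = 7.98e-06) and from 5.72 to 13.4 in HCC1500 (limma adjusted p = 0.00371, or 0.00108 without HG3). Of the other cell type markers, 2 were called higher and 0 lower in ZR-75-30, and 1 and 0 in HCC1500 (2 and 1 without HG3). In MDA-MB-175, 1 was called higher and 2 lower, VWF (-0.48 log2 units, limma adjusted p = 0.00927) and COL1A2 (-0.78, limma adjusted p = 0.00861). COL1A1 was called lower in HCC1500 without HG3 (-0.39, limma adjusted p = 2.21e-05, against -0.32 and 0.0584 with it). The part of these markers in the results was not tested.

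The first question was whether high glucose altered the autophagy genes within each line. Of the 10 genes, 3 were higher in high glucose in all 3 lines: SQSTM1, MAP1LC3B and GABARAPL1. Of all genes tested in each of the 3 lines, 1.81% were called higher in all of them (3.73% when HG3 was left out). A call was an adjusted p under 0.05 in limma on log2(value + 1) within a line, adjusted over all genes tested, and changes are on that scale. In MDA-MB-175, 4 of the 10 genes were called higher and 0 lower, against 11.9% and 13.7% of all genes tested (25.7% in either direction). In ZR-75-30, 7 were higher and 0 lower, against 23.4% and 22.7% (46.0% in either direction). In HCC1500, 3 were higher and 0 lower, against 7.46% and 13.0% (20.5%). Without HG3, 4 were higher and 4 lower in HCC1500, against 20.9% and 37.7% (58.5%). The median change over the 10 genes was 0.04 log2 units in HCC1500, 0.27 in ZR-75-30 and 0.20 in MDA-MB-175, beside -0.06, 0.01 and -0.02 over all genes tested. Without HG3 the median in HCC1500 was -0.01, beside -0.12 over all genes tested. Counted by values alone, all 4 high glucose libraries were above all 4 low glucose libraries for 5 of the 10 genes in MDA-MB-175 (12.7% of all genes tested), for 6 in ZR-75-30 (20.9%) and for 4 in HCC1500 (13.7%), and below them for 1 gene in HCC1500 (18.7%). Without HG3 the counts in HCC1500 were 4 above (21.0%) and 4 below (37.1%).

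**Figure D1:**
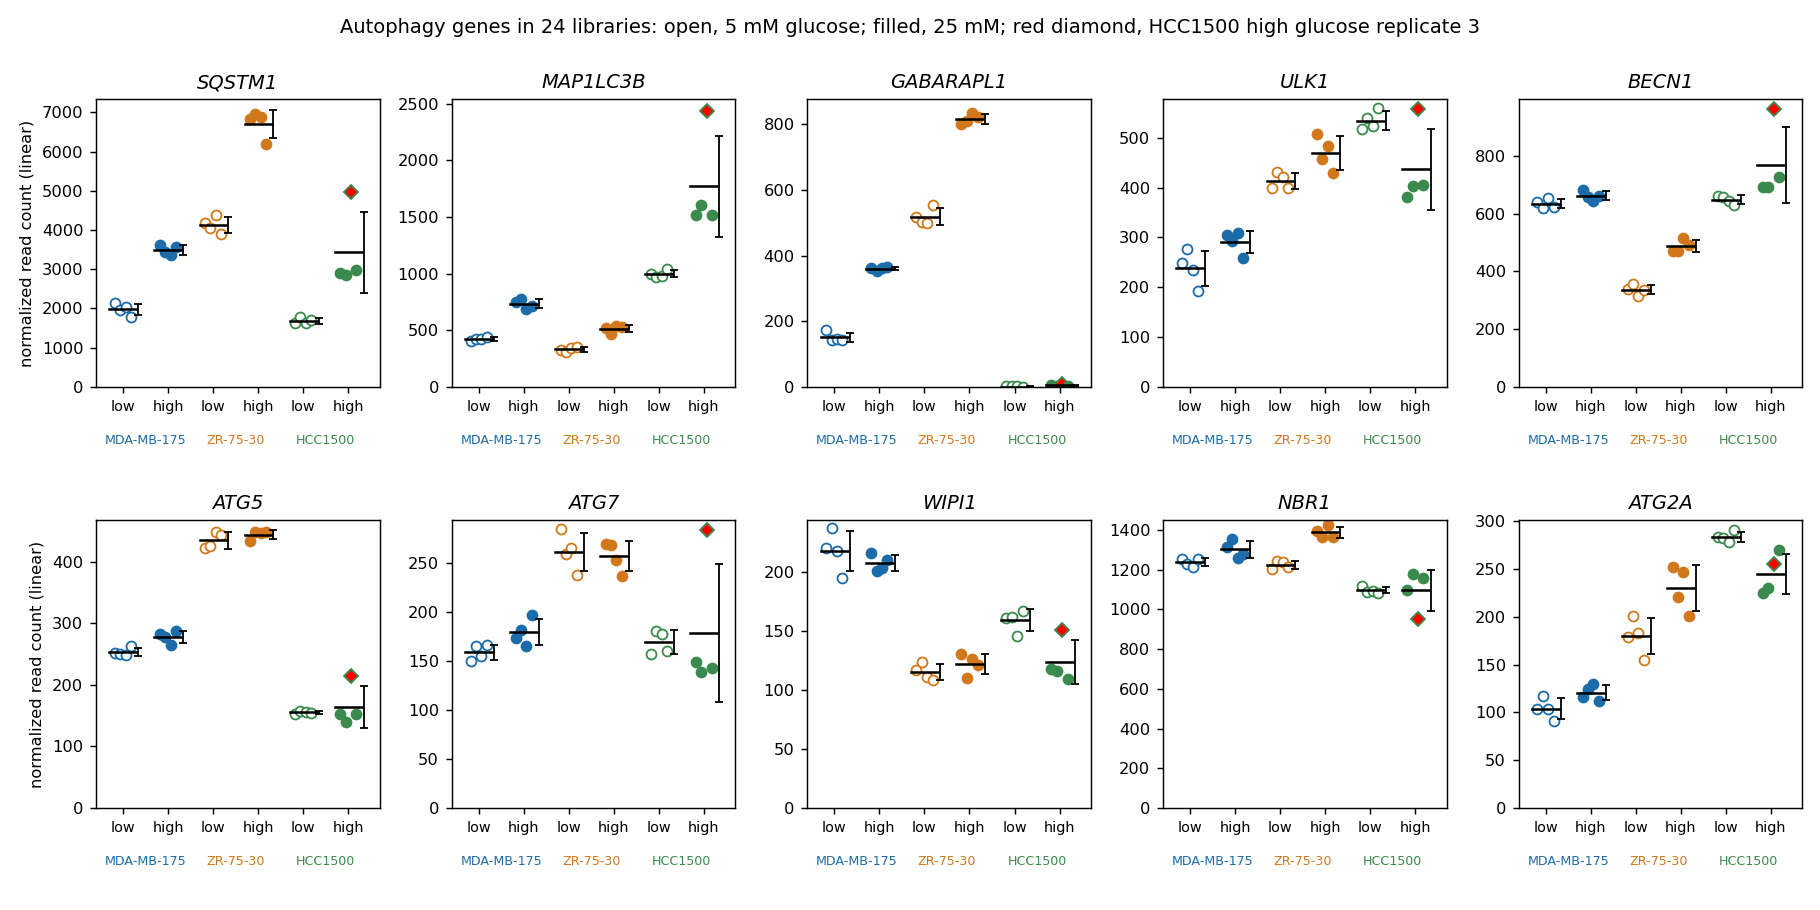
Normalized read count (linear axis, from 0) of each of the 10 genes in the 24 libraries, by line and glucose condition, with open symbols for 5 mM, filled symbols for 25 mM, horizontal bars for group means and error bars for the SD of 4 replicates. For SQSTM1 and MAP1LC3B every high glucose library lies above every low glucose library of its line. The red diamond (HCC1500 HG3) lies far above its group in SQSTM1 (4975), MAP1LC3B (2433) and BECN1 (964), on a scale where its total of values is also larger.

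SQSTM1 (ENSG00000161011; GRCh37 chr5:179233398-179265078, plus strand) encodes p62, the cargo receptor that binds ubiquitinated proteins. In MDA-MB-175 the values were 2136, 1963, 2037 and 1795 in low glucose and 3619, 3430, 3357 and 3575 in high glucose. In ZR-75-30 they were 4175, 4048, 4373 and 3910 in low and 6825, 6949, 6877 and 6182 in high glucose. In HCC1500 they were 1619, 1778, 1636 and 1713 in low and 2912, 2852, 4975 and 2975 in high glucose. The conditions did not overlap in any line, and HG3 held the highest HCC1500 value by a wide margin. The mean rose from 1983 ± 144 to 3495 ± 122 in MDA-MB-175 (SD, n = 4 in each group), a change of 0.82 ± 0.05 log2 units (SE, limma adjusted p = 6.15e-09). In ZR-75-30 it rose from 4127 ± 196 to 6708 ± 354, by 0.70 ± 0.04 (limma adjusted p = 3.21e-10). In HCC1500 the means were 1687 ± 73.7 and 3429 ± 1032, a rise of 0.98 ± 0.17 (limma adjusted p = 0.00521), and without HG3 the high glucose mean was 2913 ± 61.9 and the change 0.79 ± 0.03 (limma adjusted p = 5.74e-13). The folds were thus 1.77, 1.63 and 1.98 (1.73 without HG3). The change of SQSTM1 was not called different between lines (F test of the interaction in limma on 24 samples, adjusted p = 0.407, or 0.294 without HG3).

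MAP1LC3B (ENSG00000140941; GRCh37 chr16:87417559-87438385, plus strand) encodes LC3B, the ATG8 protein used as a marker of autophagosomes. Its values in MDA-MB-175 were 403, 421, 421 and 444 in low and 750, 778, 688 and 714 in high glucose. In ZR-75-30 they were 324, 307, 344 and 351 in low and 518, 467, 538 and 529 in high glucose. In HCC1500 they were 995, 974, 983 and 1043 in low and 1520, 1607, 2433 and 1520 in high glucose. Again the conditions were apart in each line. The change was 0.79 ± 0.05 log2 units in MDA-MB-175 (limma adjusted p = 1.01e-08) and 0.63 ± 0.06 in ZR-75-30 (limma adjusted p = 3.71e-08). In HCC1500 it was 0.80 ± 0.15 (limma adjusted p = 0.0071), or 0.63 ± 0.03 without HG3 (limma adjusted p = 1.47e-11). The change did not differ between lines at the threshold (adjusted p of the interaction = 0.586, or 0.081 without HG3).

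GABARAPL1 (ENSG00000139112; GRCh37 chr12:10365057-10375727, plus strand) encodes another ATG8 protein, of the GABARAP branch. In MDA-MB-175 it measured 173, 142, 145 and 144 in low and 361, 353, 361 and 365 in high glucose. In ZR-75-30 it measured 519, 504, 499 and 555 in low and 802, 809, 835 and 822 in high glucose. The conditions were well apart in both lines. In HCC1500 the gene was close to the floor, with 1.52, 1.27, 1.53 and 0 in low and 4.72, 2.49, 7.43 and 3.69 in high glucose, which rest on 0 to 4 and 5 to 10 reads per library. The change was 1.25 ± 0.07 log2 units in MDA-MB-175 (limma adjusted p = 1.37e-09) and 0.65 ± 0.04 in ZR-75-30 (limma adjusted p = 7.16e-10). In HCC1500 it was 1.44 ± 0.40 (limma adjusted p = 0.0339), or 1.22 ± 0.41 without HG3 (limma adjusted p = 0.0173), and this call was lost in 8 of 18 alternative analyses. Summed over the 4 libraries of each condition, HCC1500 gave 31 reads in high and 12 in low glucose, a ratio of read shares of 3.68 with an exact 95% interval of 1.84 to 7.87 for counting error only (3.24, 1.52 to 7.23, without HG3). The interaction was not called for GABARAPL1 (adjusted p = 0.15, or 0.122 without HG3), but it was in 6 of 36 alternatives.

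Because these 3 genes were higher in high glucose in each line, the 250 bases before the transcription start that matches the MANE Select transcript are shown for each, 5′ to 3′ on the gene's strand, from RefSeq promoter windows on GRCh38.p14. Capitals mark a match to TGACNNNGC, the antioxidant response element. The windows are chr5:179820655-179820904, chr16:87392086-87392335 and chr12:10212627-10212876, all on the plus strand.
SQSTM1: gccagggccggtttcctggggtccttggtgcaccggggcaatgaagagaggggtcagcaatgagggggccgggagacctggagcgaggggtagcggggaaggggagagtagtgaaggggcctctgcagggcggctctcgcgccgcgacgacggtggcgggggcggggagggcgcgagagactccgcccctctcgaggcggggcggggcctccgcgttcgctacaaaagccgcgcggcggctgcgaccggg
MAP1LC3B: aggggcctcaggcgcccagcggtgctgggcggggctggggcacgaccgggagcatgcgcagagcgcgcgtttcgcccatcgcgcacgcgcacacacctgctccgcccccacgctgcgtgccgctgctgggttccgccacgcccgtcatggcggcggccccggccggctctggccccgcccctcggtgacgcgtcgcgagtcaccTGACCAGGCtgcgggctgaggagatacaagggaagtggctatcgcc
GABARAPL1: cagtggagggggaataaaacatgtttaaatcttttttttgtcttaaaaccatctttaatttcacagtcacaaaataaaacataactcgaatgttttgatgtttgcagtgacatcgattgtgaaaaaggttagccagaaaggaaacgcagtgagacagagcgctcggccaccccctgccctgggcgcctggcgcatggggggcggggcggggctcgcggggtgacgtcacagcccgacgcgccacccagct
The GC content was 73.6% for SQSTM1, 74.8% for MAP1LC3B and 51.6% for GABARAPL1, against a median of 58.0% over the windows before 35116 RefSeq starts. In all, 5 patterns were searched on both strands in windows that also held the first 50 transcribed bases: CACGTG (the MiT/TFE E-box), its extended 10-base palindrome, which contains it, TGTTTAC (forkhead), TGACNNNGC and TGATGNAAT (CEBP-ATF). All 10 genes had a window. The single match among them was TGACCAGGC in MAP1LC3B, 46 bases before the start on the gene's strand. Over all 35116 windows TGACNNNGC was found in 13.3%, CACGTG in 7.26%, TGTTTAC in 3.42%, TGATGNAAT in 0.991% and the 10-base palindrome in 0.353%. A match is a description of letters, and its absence says only that these letters are not in this window.

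The starting kinase did not change alike in the 3 lines. ULK1 (ENSG00000177169; GRCh37 chr12:132379167-132407695, plus strand) encodes the kinase on which nutrient signals act. In MDA-MB-175 it measured 248, 276, 235 and 193 in low and 304, 293, 308 and 259 in high glucose, with overlapping conditions. In ZR-75-30 it measured 399, 432, 422 and 399 in low and 507, 458, 484 and 429 in high glucose, again with overlap. In HCC1500 it measured 517, 539, 523 and 559 in low and 381, 404, 558 and 406 in high glucose. On this scale 3 of 4 high glucose libraries were lower than all low glucose libraries, while HG3, with its larger total of values, was not. ULK1 was called higher in MDA-MB-175 (0.30 ± 0.09 log2 units, limma adjusted p = 0.0235, with the call lost in 5 of 21 alternatives) and in ZR-75-30 (0.18 ± 0.05, limma adjusted p = 0.00985, lost in 2 of 21). In HCC1500 the change was -0.31 ± 0.12 (limma adjusted p = 0.118), and without HG3 it was -0.43 ± 0.04 (limma adjusted p = 6.44e-08). The difference between lines was called (adjusted p of the interaction = 0.00651, or 1.82e-05 without HG3) and was called in 36 of 36 alternatives.

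BECN1 (ENSG00000126581; GRCh37 chr17:40962152-40985367, minus strand), the core of the PI3-kinase complex, was called higher in ZR-75-30. There it measured 338, 357, 316 and 337 in low and 470, 471, 515 and 491 in high glucose, a change of 0.53 ± 0.05 log2 units (limma adjusted p = 9.65e-08). In MDA-MB-175 it measured 642, 618, 653 and 624 in low and 682, 658, 645 and 661 in high glucose, which overlapped, and the change was 0.06 with a 95% interval of -0.03 to 0.15 (limma adjusted p = 0.336). In HCC1500 it measured 662, 659, 643 and 630 in low and 691, 692, 964 and 727 in high glucose. These did not overlap, but the change of 0.23 ± 0.12 passed the threshold only when HG3 was left out or the analysis altered (limma adjusted p = 0.201, against 0.12 ± 0.04 and 0.0089 without HG3). The difference between lines was called (adjusted p of the interaction = 0.00533, or 1.96e-07 without HG3).

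ATG2A and WIPI1 act on the growing membrane, ATG2A by transferring lipid and WIPI1 by binding PI3P. ATG2A (ENSG00000110046; GRCh37 chr11:64662018-64684681, minus strand) measured 179, 201, 183 and 155 in low and 252, 221, 247 and 201 in high glucose in ZR-75-30, where the change was 0.36 ± 0.08 log2 units (limma adjusted p = 0.00173). The highest low and the lowest high glucose value there both round to 201, so the conditions counted as apart only by less than this rounding. In MDA-MB-175 it measured 104, 117, 104 and 91.1 in low and 116, 124, 130 and 112 in high glucose, a change of 0.22 with an interval of 0.03 to 0.41 that was not called (limma adjusted p = 0.0856). In HCC1500 it measured 284, 282, 278 and 291 in low and 225, 230, 255 and 270 in high glucose. Every high glucose library of HCC1500 was thus lower than every low glucose library, but the change of -0.21 ± 0.09 was not called (limma adjusted p = 0.119). Without HG3 it was -0.23 ± 0.06 and called (limma adjusted p = 0.00209).

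WIPI1 (ENSG00000070540; GRCh37 chr17:66417089-66453654, minus strand) measured 161, 162, 146 and 167 in low and 118, 116, 151 and 109 in high glucose in HCC1500. On this scale all high glucose libraries except HG3, with its larger total of values, were below the low glucose range. The change was -0.37 ± 0.12 log2 units (limma adjusted p = 0.0601) and -0.47 ± 0.07 without HG3 (limma adjusted p = 1.04e-05). In MDA-MB-175 WIPI1 ranged from 195 to 237 in low and from 201 to 216 in high glucose (change -0.06, interval -0.20 to 0.07), and in ZR-75-30 from 108 to 124 and from 110 to 130 (change 0.08, interval -0.09 to 0.25). Both pairs of ranges overlapped and neither change was called. The change differed between lines for ATG2A (adjusted p of the interaction = 0.00376, or 0.00103 without HG3) and for WIPI1 (0.0198, or 0.000123 without HG3, called in 34 of 36 alternatives).

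ATG5 and ATG7, the 2 conjugation enzymes among the 10 genes, were not called in any of the 3 lines with all libraries, and ATG7 was called lower in HCC1500 without HG3. ATG5 (ENSG00000057663; GRCh37 chr6:106493298-106773666, minus strand) ranged from 248 to 263 in low and from 265 to 287 in high glucose in MDA-MB-175, which did not overlap, with a change of 0.14 and an interval of 0.02 to 0.25 (limma adjusted p = 0.0751). In ZR-75-30 its change was 0.03 (interval -0.06 to 0.12) and in HCC1500 0.06 (interval -0.25 to 0.37), or -0.07 without HG3 (interval -0.20 to 0.06, limma adjusted p = 0.317). ATG7 (ENSG00000197548; GRCh37 chr3:11313995-11599139, plus strand), the activating enzyme for both conjugation reactions, changed by 0.17 in MDA-MB-175 (interval 0.02 to 0.32, limma adjusted p = 0.0874), by -0.02 in ZR-75-30 (interval -0.16 to 0.11) and by 0.02 in HCC1500 (interval -0.49 to 0.52). In HCC1500 ATG7 measured 157, 181, 178 and 160 in low and 149, 139, 284 and 143 in high glucose. HG3 held the highest value and the other 3 high glucose libraries were below the low glucose range, so that the change without HG3 was -0.23 ± 0.07 (limma adjusted p = 0.00713).

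NBR1 (ENSG00000188554; GRCh37 chr17:41322498-41363708, plus strand), the receptor that acts beside p62, moved little. It ranged from 1213 to 1256 in low and from 1259 to 1352 in high glucose in MDA-MB-175, with a change of 0.07 (limma adjusted p = 0.192). In ZR-75-30 it ranged from 1201 to 1244 and from 1362 to 1425, a change of 0.18 ± 0.03 that was called (limma adjusted p = 0.000318). In HCC1500 it ranged from 1082 to 1117 in low and from 950 to 1179 in high glucose. There HG3 gave the lowest value, and the change was 0.00 with all libraries (limma adjusted p = 0.979) and 0.06 without HG3 (limma adjusted p = 0.1).

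**Figure D2:**
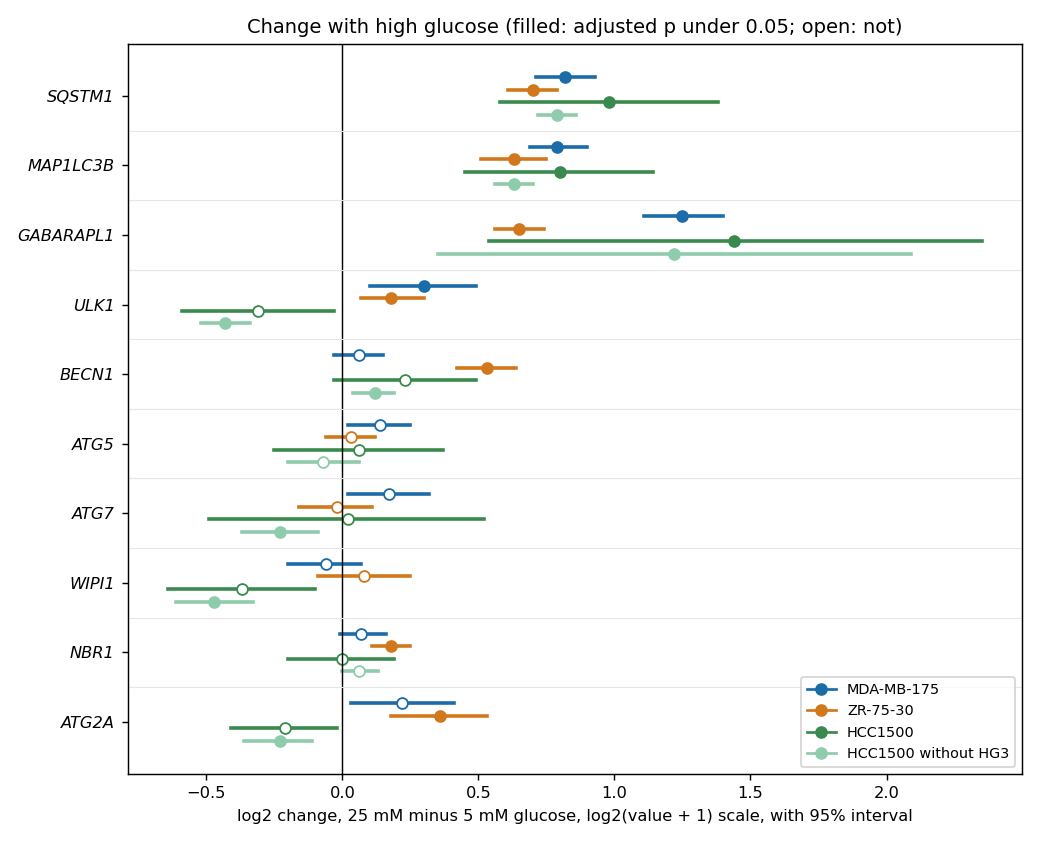
Change of each gene with high glucose in log2 units, log2(value + 1) scale, as points with 95% intervals for the 3 lines and for HCC1500 without HG3, filled where the adjusted p was under 0.05. SQSTM1, MAP1LC3B and GABARAPL1 lie to the right of 0 in each fit, ULK1 lies at -0.31 in HCC1500 and at 0.18 and 0.30 in ZR-75-30 and MDA-MB-175, and the intervals of HCC1500 shorten when HG3 is left out.

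By the interaction test, 4 of the 10 genes (ULK1, BECN1, WIPI1 and ATG2A) changed differently in the 3 lines, against 29.3% of all genes tested. Without HG3, 7 of the 10 did, against 48.6%. The genes added were ATG5 (adjusted p of the interaction = 0.015), ATG7 (0.00461) and NBR1 (0.0317). In HCC1500 without HG3 the median of all genes lay at -0.12 log2 units, and it was -0.01 after median-of-ratios rescaling, an alternative added after the data had been seen. With that rescaling ULK1 (-0.31) and WIPI1 (-0.35) were still called lower in HCC1500 without HG3, ATG7 (-0.11) and ATG2A (-0.12) were not called, and NBR1 (0.18) was called higher. The split of 4 higher and 4 lower became 5 higher and 2 lower.

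The reads behind several genes could not be assigned with certainty, because the counting is not stated to use strand. Of the 50-base stretches of the SQSTM1 MANE Select transcript, 53.4% also occurred, on either strand, in transcripts of MRNIP, a gene on the other strand. The share was 36.4% for BECN1 (CNTD1), 29.3% for ATG7 (VGLL4) and 26.4% for WIPI1 (ARSG). For MAP1LC3B it was 18.3%, all of it shared with its paralog MAP1LC3B2, and for GABARAPL1 1.69% (GABARAPL3). It was 0 for ULK1, ATG5, NBR1 and ATG2A. The values of MRNIP itself ranged from 38.1 to 241 over all libraries, and those of CNTD1 from 2.28 to 27.5, both far below their partners. VGLL4, at 349 to 490, lay above ATG7. ARSG ranged from 76.5 to 82.9 in low and from 48.4 to 61.6 in high glucose in HCC1500, where WIPI1 was also lower outside HG3. In ZR-75-30 ARSG ranged from 90.3 to 103 in low and from 130 to 140 in high glucose. In MDA-MB-175 it ranged from 54.4 to 70.4 and from 46.1 to 57.4. The change of WIPI1 was not called in ZR-75-30 or MDA-MB-175. The parts of ARSG and WIPI1 in each other's values were not tested.

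The wider machinery was described through 71 genes in 7 roles, which include the 10 genes and of which 70 were in the table (MAP1LC3C was not analysed here). Called higher and lower were 16 and 5 genes in MDA-MB-175, 34 and 4 genes in ZR-75-30 and 9 and 5 genes in HCC1500 (27 and 20 without HG3). The corresponding shares of all genes tested were 11.9% and 13.7%, 23.4% and 22.7%, and 7.46% and 13.0% (20.9% and 37.7% without HG3), and they are the background for each role below. With the 10 genes left out, the counts were 12 and 5, 27 and 4, and 6 and 5 (23 and 16 without HG3). After median-of-ratios rescaling, the 27 and 20 of all role genes in HCC1500 without HG3 became 38 and 13. The median of all genes moved from -0.12 to -0.01 log2 units. The split by direction in that fit, here and in the roles below, thus depends on the scaling. The median change of the tested genes was 0.06 log2 units in HCC1500 (0.05 without HG3), 0.16 in ZR-75-30 and 0.08 in MDA-MB-175, on the same scale as the medians over all genes above.

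**Figure D3:**
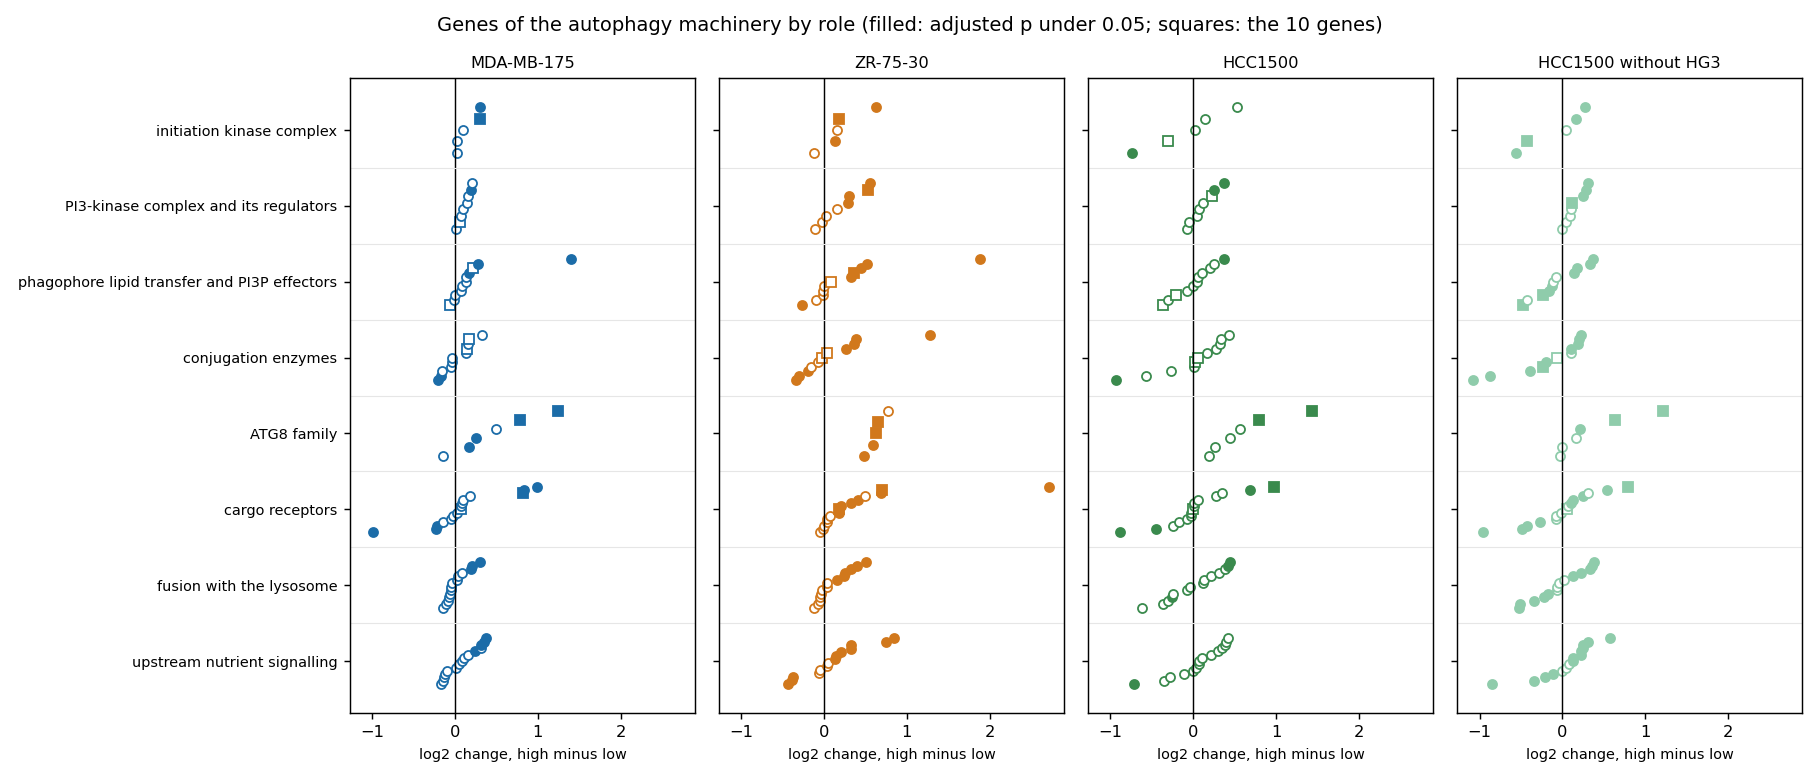
Change with high glucose in log2 units, log2(value + 1) scale, of each tested gene of the 7 autophagy roles and of upstream nutrient signalling, 1 panel per line and 1 for HCC1500 without HG3, filled where the adjusted p was under 0.05, with squares for the 10 genes. The ATG8 family has 4 filled points to the right of 0 in the panels of ZR-75-30 and MDA-MB-175, and OPTN stands at 2.71 among the cargo receptors of ZR-75-30.

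In the ATG8 family, 4 of 5 tested genes were called higher in ZR-75-30, 4 of 6 in MDA-MB-175 and 2 of 6 in HCC1500 (3 without HG3), and 0 lower in each. GABARAP, a close relative of GABARAPL1, changed by 0.17 log2 units in MDA-MB-175 (limma adjusted p = 0.0249) and by 0.48 in ZR-75-30 (limma adjusted p = 1.96e-07). GABARAPL2 changed by 0.26 and 0.59 (limma adjusted p = 0.0056 and 1.35e-07). In HCC1500, GABARAP was called without HG3 (0.21, limma adjusted p = 1.67e-05), and GABARAPL2 had means of 383 and 485 ± 203 in low and high glucose there (383 in both without HG3). MAP1LC3A had means between 15.7 and 16.9 in MDA-MB-175 and of at most 2.06 in the other lines.

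Of the 15 cargo receptors, 3 were called higher and 3 lower in MDA-MB-175, 8 and 0 in ZR-75-30, and, for HCC1500, 2 and 2 (5 and 4 without HG3). OPTN encodes optineurin, a receptor for bacteria and damaged mitochondria. It rose from 85.2 ± 15.7 to 169 ± 9.53 in MDA-MB-175 (0.99 ± 0.11, limma adjusted p = 7.05e-06) and from 23.5 ± 5.13 to 156 ± 8.24 in ZR-75-30 (2.71 ± 0.14, limma adjusted p = 3.89e-11). RETREG1, listed as FAM134B, encodes a receptor for the endoplasmic reticulum. It fell from 92.8 ± 13 to 46.5 ± 8.07 in MDA-MB-175 (-0.99 ± 0.13, limma adjusted p = 4.44e-05) and from 232 ± 11.7 to 126 ± 14.4 in HCC1500 (-0.88 ± 0.10, limma adjusted p = 0.000673, or -0.96 and 1.67e-10 without HG3). In ZR-75-30 it measured 13.4 ± 1.54 and 19.6 ± 4.46 (0.50 ± 0.22, limma adjusted p = 0.0674) and was not called. In HCC1500 OPTN measured 493 ± 22.7 and 633 ± 95.1 and was called higher when HG3 was left out (0.25, limma adjusted p = 3.28e-05, against 0.35 and 0.0526 with it). STBD1, a receptor for glycogen, rose in MDA-MB-175 (0.83 ± 0.18, limma adjusted p = 0.00229) and in ZR-75-30 (0.69 ± 0.16, limma adjusted p = 0.00153), and was not called in HCC1500 (0.27). FUNDC1 (-0.23), a mitochondrial receptor, and TEX264 (-0.22), a receptor for the endoplasmic reticulum, fell in MDA-MB-175. TOLLIP, a ubiquitin-binding adaptor, rose in HCC1500 (0.68 ± 0.14, limma adjusted p = 0.0113, or 0.54 and 1.88e-07 without HG3).

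Among the 11 conjugation enzymes, 0 were called higher and 2 lower in MDA-MB-175, 4 and 3 in ZR-75-30, and, for HCC1500, 0 and 1 (4 and 5 without HG3). ATG16L2, a relative of the ATG16L1 scaffold, rose from 73.4 ± 6.32 to 183 ± 42.7 in ZR-75-30 (1.28 ± 0.13, limma adjusted p = 2.82e-07) and fell from 225 ± 16.5 to 119 ± 28.2 in HCC1500 (-0.93 ± 0.16, limma adjusted p = 0.00394, or -1.08 and 3.72e-10 without HG3). ATG3, the conjugating enzyme for ATG8 proteins, fell by 0.34 log2 units in ZR-75-30 and by 0.21 in MDA-MB-175. ATG4A, a protease that processes ATG8 proteins, fell by 0.30 in ZR-75-30. In HCC1500 without HG3 both were called higher (0.19 and 0.23). In the initiation complex, 2 of 5 genes were called higher in MDA-MB-175 and 3 in ZR-75-30, with 0 lower in either, and, for HCC1500, 0 were called higher and 1 lower (2 and 2 without HG3). The gene that fell there was ULK2, the paralog of ULK1, from 147 ± 5.59 to 89.7 ± 20.7 (-0.74 ± 0.17, limma adjusted p = 0.0183, or -0.56 and 2.58e-06 without HG3).

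In the PI3-kinase complex and its regulators, 4 of 8 genes were called higher in ZR-75-30, 1 in MDA-MB-175 and 2 in HCC1500 (4 without HG3), and 0 lower in each. Of the 11 lipid transfer and PI3P genes, 3 were called higher in MDA-MB-175, 5 higher and 1 lower in ZR-75-30, and 1 higher in HCC1500 (4 and 4 without HG3). ATG9B, a relative of the membrane scramblase ATG9A, rose in ZR-75-30 from 1.70 ± 0.483 to 8.96 ± 1.6 and in MDA-MB-175 from 1.53 ± 1.16 to 5.6 ± 2.56, and both low glucose means lay at the floor of 3 reads. VMP1, an endoplasmic reticulum protein of early autophagosome formation, fell by 0.27 log2 units in ZR-75-30. Of the 14 genes for fusion with the lysosome, 6 were called higher in ZR-75-30 and 3 in MDA-MB-175, with 0 lower in either, and, for HCC1500, 2 were higher and 1 lower (5 and 5 without HG3). RAB7A, a GTPase of late endosomes, was called higher in HCC1500 (0.45, or 0.36 without HG3), ZR-75-30 (0.33) and MDA-MB-175 (0.19). VPS11, a tethering subunit, was called higher in HCC1500 (0.42, or 0.34 without HG3) and ZR-75-30 (0.40), but not in MDA-MB-175 (-0.05). VPS39, another tethering subunit, fell in HCC1500 (-0.26, or -0.22 without HG3), was called higher in ZR-75-30 (0.15) and was not called in MDA-MB-175 (-0.07). Of 15 upstream nutrient signalling genes, counted apart, 4 were called higher and 0 lower in MDA-MB-175, 7 and 3 in ZR-75-30, and, for HCC1500, 0 and 1 (8 and 4 without HG3).

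The second question was how the 10 genes differed between lines. They were compared in the model of 24 samples, where line differences were common: between 63.8% and 73.7% of all genes tested were called in each of the 6 contrasts. In low glucose, 9 of the 10 genes were called between MDA-MB-175 and ZR-75-30 (63.8% of all genes), 7 between MDA-MB-175 and HCC1500 (72.6%) and 10 between ZR-75-30 and HCC1500 (73.0%). In high glucose the counts were 9 (65.8%), 8 (73.5%) and 7 (73.7%). Without HG3, which also enters the shared estimate of the spread, the counts were 9 (72.1%), 8 (79.5%) and 10 (79.0%) in low glucose and 10 (73.8%), 9 (78.4%) and 8 (78.0%) in high glucose. These shares are near those of all genes for several contrasts. Between MDA-MB-175 and HCC1500 in high glucose, leaving out HG3 added SQSTM1 (-0.26 for HCC1500 minus MDA-MB-175, limma adjusted p = 5.8e-05, against -0.07 and 0.601 with it) and ATG7 (-0.32 and 0.000264, against -0.07 and 0.668) to the calls, and removed BECN1 (0.09 and 0.0544, against 0.20 and 0.0199).

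GABARAPL1 had the largest differences between lines among the 10 genes. In low glucose ZR-75-30 had a mean of 519 ± 25.2, MDA-MB-175 of 151 ± 14.5 and HCC1500 of 1.08 ± 0.731. Its share of reads in HCC1500 rested on 12 reads, and the share in MDA-MB-175 was 125 times as high (exact 95% interval 71.5 to 243, counting error only) and in ZR-75-30 360 times as high (206 to 698). In high glucose the ratios were 79.3 (55.7 to 117) and 150 (106 to 222), or 90.0 (58.8 to 146) and 171 (112 to 276) without HG3. MAP1LC3B had the opposite order, with its highest level in HCC1500 (999 ± 30.9 in low glucose, against 422 ± 16.6 in MDA-MB-175 and 331 ± 19.9 in ZR-75-30). The difference between HCC1500 and ZR-75-30 was 1.59 ± 0.10 log2 units (limma adjusted p = 2.23e-12), and ZR-75-30 was below MDA-MB-175 by limma as well (-0.35 ± 0.10, adjusted p = 0.00481).

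SQSTM1 was highest in ZR-75-30 in low glucose, 1.06 ± 0.12 log2 units above MDA-MB-175 (limma adjusted p = 3.46e-08), and HCC1500 was not called different from MDA-MB-175 (-0.23, interval -0.47 to 0.01, limma adjusted p = 0.078) unless HG3 was left out of the fit (-0.23, interval -0.33 to -0.13, limma adjusted p = 9.97e-05). ULK1 and ATG2A shared an order in low glucose. ULK1 measured 535 ± 18.8 in HCC1500, 413 ± 16.5 in ZR-75-30 and 238 ± 34.5 in MDA-MB-175, and ATG2A 284 ± 5.28, 180 ± 18.9 and 104 ± 10.7, with each pair of lines called. In high glucose HCC1500 and ZR-75-30 were not called apart for ULK1 (-0.12, interval -0.33 to 0.10), ATG2A (0.09, interval -0.10 to 0.28) or WIPI1 (0.01, interval -0.17 to 0.19). Without HG3, ULK1 was called lower in HCC1500 (-0.24, interval -0.41 to -0.07, limma adjusted p = 0.0107), while ATG2A (0.07, interval -0.12 to 0.26) and WIPI1 (-0.09, interval -0.23 to 0.06) were not called. High glucose values summed to 7272253 to 7594840 in ZR-75-30 and 5559394 to 5604083 in HCC1500 without HG3, so these contrasts depend on the scaling. ATG5 was highest in ZR-75-30 (435 ± 13.3), then MDA-MB-175 (253 ± 7.09) and HCC1500 (156 ± 2.34). ATG7 was also highest in ZR-75-30 (262 ± 19.2), with 159 ± 7.86 in MDA-MB-175 and 169 ± 12.4 in HCC1500, which were not called apart (0.08, interval -0.22 to 0.39).

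WIPI1 was highest in MDA-MB-175 (217 ± 16.9), followed by HCC1500 (159 ± 9.11) and ZR-75-30 (115 ± 6.90). BECN1 was lowest in ZR-75-30 (337 ± 16.7), while MDA-MB-175 (634 ± 16.2) and HCC1500 (649 ± 15.0) were not called apart (0.03, interval -0.12 to 0.19). NBR1 had similar means in the 3 lines, with 1096 ± 15.2, 1224 ± 20.2 and 1237 ± 20.7 in HCC1500, ZR-75-30 and MDA-MB-175. The lower NBR1 level of HCC1500 against ZR-75-30 (-0.16, limma adjusted p = 0.00909) turned to 0.20 when values were rescaled to CPM (reads scaled to a fixed library total), so its order between lines is not settled.

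**Figure D4:**
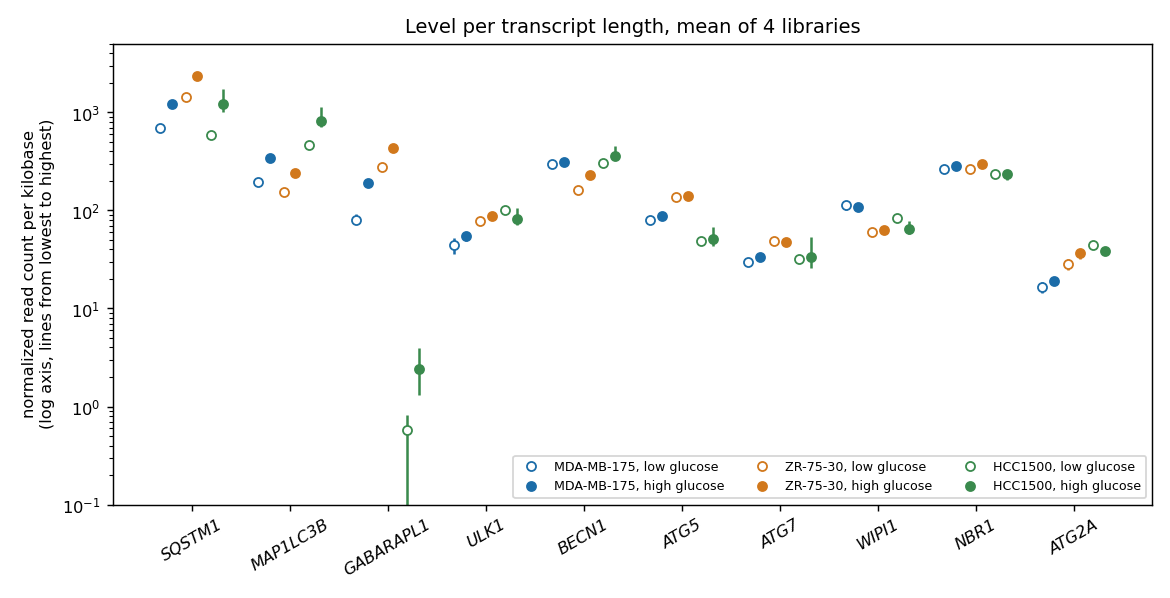
Normalized read count per kilobase of the MANE Select transcript (log axis) for the 10 genes in the 6 groups, with points for means of 4 replicates, open for 5 mM and filled for 25 mM glucose, and vertical lines from the lowest to the highest library (the HCC1500 low glucose library with 0 reads of GABARAPL1 is below the axis). SQSTM1 has the highest mean in each group, and GABARAPL1 in HCC1500, at 0.574 and 2.43 (1.93 without HG3), lies far below every other value.

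Levels of different genes were compared per kilobase of the MANE Select transcript. SQSTM1 had the highest mean in all 6 groups, although its range overlapped with that of MAP1LC3B in HCC1500 in high glucose. Without HG3 these ranges were apart, at 1004 to 1048 and 708 to 749 units per kilobase. It ran from 594 ± 25.9 units per kilobase in HCC1500 to 1453 ± 69.2 in ZR-75-30 in low glucose. In MDA-MB-175 in low glucose the order went on with BECN1 (301), NBR1 (268), MAP1LC3B (197), WIPI1 (114), GABARAPL1 (80.1), ATG5 (79.5), ULK1 (44.7), ATG7 (29.8) and ATG2A (16.5). The ranges of neighbours were apart except for GABARAPL1 and ATG5. In ZR-75-30 GABARAPL1 (276) stood next to SQSTM1 but overlapped with NBR1 (265), and BECN1 (160) overlapped with MAP1LC3B (154). In HCC1500 MAP1LC3B (465) was next to SQSTM1 and GABARAPL1 (0.574) was last, with no overlap between neighbours in low glucose. When all annotated exon bases were used as the length, SQSTM1 stayed first in each group, but NBR1 moved above BECN1 in MDA-MB-175 (147 against 98.9) and in HCC1500 (130 against 101) in low glucose.

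Which genes varied together was described over 23 libraries, without HG3, as the Pearson correlation of log2(value + 1) after centering on each line's mean. These points share the glucose contrast, so no test is given. Among the 10 genes the closest pairs were SQSTM1 and MAP1LC3B (r = 0.96), SQSTM1 and GABARAPL1 (0.87), BECN1 and NBR1 (0.87), MAP1LC3B and GABARAPL1 (0.84), and ULK1 and ATG2A (0.83). WIPI1 was negatively correlated with SQSTM1 (-0.44), MAP1LC3B (-0.42) and GABARAPL1 (-0.55). Its own change was called lower only in HCC1500 without HG3 (-0.47), and was not called in MDA-MB-175 (-0.06) or ZR-75-30 (0.08). Among 13310 genes whose mean value reached 10, those most like SQSTM1 were EFNA1, STX3 and GPNMB (r = 0.97 for each). Those most like MAP1LC3B were STX3 and GPNMB (0.98) and SLC6A6 (0.97), and those most like GABARAPL1 were FAM214A and RRAS2 (0.91) and FAM83G (0.90). In HCC1500 GABARAPL1 had 0 to 10 reads per library, so all its correlations include values near the floor. RRAS2 did not pass the filter for testing in HCC1500. GPNMB, a transmembrane glycoprotein, changed by 3.47 log2 units in HCC1500 (3.34 without HG3), 2.77 in ZR-75-30 and 3.70 in MDA-MB-175.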

How the data were processed

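Libraries were sequenced on an Illumina HiSeq. The authors' methods name trimming with Trimmomatic, TopHat alignment to hg19 and Ensembl v70 annotation, DESeq2, and CPM from edgeR's TMM factors, whereas the submitters' processing notes name hg38 and edgeR. The deposited table holds a normalized signal per gene, which the authors did not define: each value is a whole number of reads (tolerance 0.01) over 1 unstated factor per sample. In every sample 100.0% of values gave whole reads, and count tests on these reads were alternatives. The authors' RNA-Seq methods name a stranded TruSeq mRNA kit, in their account of the tumor libraries. Whether it was used for these lines, and whether the counting used strand, is not given in the sources used here.

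Groups came from the labels. Genes that reached 0.5 units in 4 or more fitted samples were tested with limma 3.58.1 (R 4.3.3) on log2(value + 1), two-sided, with an intensity trend and no covariate: 8 samples per line for glucose, and 24 samples with 6 group means for interactions and lines. P-values were adjusted by Benjamini-Hochberg over all genes. edgeR 4.0.16 and DESeq2 1.42.0 served as alternatives. The scripts were tested on simulated data. The 10 genes, the role lists and the markers were chosen with earlier results of these data known. Named were the 10 genes, TXNIP and ARRDC4 as label checks, the 3 largest called rises and falls of other role genes per line, and the 3 genes most correlated with SQSTM1, MAP1LC3B and GABARAPL1. Other genes (ATG8 relatives, CD68, ACTA2, VWF, COL1A1, COL1A2, KRT19, VPS39, and partners on the other strand) were named after their values were seen. ARRDC4 changed by 0.39 log2 units in HCC1500 and by 0.41 in each other line and was not called in HCC1500 (limma adjusted p = 0.0704) unless HG3 was left out (0.37 and 0.01). Positions are 1-based, from GENCODE release 44 lifted to GRCh37.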

Additional observations from a re-analysis of the deposited data

Results flagged for a closer look

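In groups of 4 libraries a value was picked out when its gap to the nearest other value took up more of the group's range than Dixon's 95% critical value allows. Chance picks out about 1 in 20 groups, and 60 were examined. In HCC1500 high glucose, replicate 3 was picked out for SQSTM1 (4975), MAP1LC3B (2433), ULK1 (558), BECN1 (964) and ATG7 (284), each above the other 3 libraries. This library had 23.91% of genes more than 1 log2 unit from its group. Its values also summed to 7319781, against at most 5604083 in the rest of the group, and the part of this scaling in the gaps was not tested. Replicate 4 of ZR-75-30 high glucose was picked out for SQSTM1 (6182, below the others) and replicate 1 of MDA-MB-175 low glucose for GABARAPL1 (173, above the others). No cause was tested.

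The change with glucose differed between lines, by the interaction F test in limma, for ULK1 (adjusted p = 0.00651), BECN1 (0.00533), WIPI1 (0.0198) and ATG2A (0.00376). ULK1 changed by -0.31, 0.18 and 0.30 log2 units in HCC1500, ZR-75-30 and MDA-MB-175, BECN1 by 0.23, 0.53 and 0.06, WIPI1 by -0.37, 0.08 and -0.06, and ATG2A by -0.21, 0.36 and 0.22.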

How the results depend on the processing

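SQSTM1 and MAP1LC3B were called higher in each line in all 21 alternative analyses, with changes of 0.77 to 0.86 and 0.76 to 0.82 log2 units in MDA-MB-175, 0.66 to 0.74 and 0.58 to 0.67 in ZR-75-30, and 0.79 to 1.06 and 0.63 to 0.86 in HCC1500. GABARAPL1 was called in all 21 in MDA-MB-175 and ZR-75-30, but in HCC1500 in 10 of the 18 that gave a value.

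In HCC1500 the count of the 10 genes called, 3 as reported, was 5 after median-of-ratios rescaling and with TMM factors, 6 with edgeR (4 higher, 2 lower), DESeq2 and the model of all 24 samples, and 8 with sample weights. Leaving out 1 library gave 2 to 8 (8 without HG3). Without HG3 it was 7 with median-of-ratios, 6 with TMM and 7 with edgeR, alternatives added after the data had been seen. For the 70 pathway genes in HCC1500, the 14 called became 22 with median-of-ratios, 27 with DESeq2, 45 with sample weights and 30 in the model of all 24 samples, 8 to 47 when 1 library was left out (9 without LG1, 8 without LG2, 8 without LG3, 9 without LG4, and 47 without HG3), and 51, 50 and 51 without HG3 with median-of-ratios, TMM and edgeR. Without HG3 the pathway genes called higher and lower in HCC1500 were 38 and 13 with median-of-ratios and with edgeR, and 37 and 13 with TMM. In MDA-MB-175 the 21 pathway genes became 9 in the model of all 24 samples. The 4 genes whose change differed between lines became 7 with sample weights, and 3 to 7 when 1 library was left out (7 without HG3). The cause was not tested.

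The labels give the groups the same replicate numbers, but deviations of same-numbered libraries from their group means correlated at a mean of 0.04, 0.01 and 0.02 in the 3 lines, so the numbers were not taken as pairing. With the replicate block, 8 pathway genes (4 higher, 4 lower) and 2 of the 10 genes were called in HCC1500, 4 in MDA-MB-175 and 7 in ZR-75-30.

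Changes of sign concerned small values. When 1 library was left out in HCC1500, ATG5 ranged from -0.07 to 0.13 and ATG7 from -0.23 to 0.11. ATG5 turned to -0.01 (ZR-75-30) and -0.02 (HCC1500) in CPM, and to -0.07 in HCC1500 with sample weights or without HG3. ATG7 turned in HCC1500 to -0.06 in CPM, -0.23 with sample weights or without HG3, -0.02 without LG1, -0.01 without LG4, and to -0.11, -0.12 and -0.13 without HG3 with median-of-ratios, TMM and edgeR, and in ZR-75-30 to 0.02 without LG1 and 0.01 without HG4. In low glucose, NBR1 in ZR-75-30 against MDA-MB-175 turned to 0.07 with median-of-ratios and DESeq2 and 0.08 with TMM and edgeR (0.07, 0.10 and 0.09 without HG3), and in HCC1500 against ZR-75-30 to 0.20 in CPM. In HCC1500 against MDA-MB-175, BECN1 turned to -0.03 with median-of-ratios and DESeq2 and -0.06 with TMM and edgeR (-0.02, -0.02 and -0.04 without HG3), and ATG7 to -0.01 with TMM and edgeR. In CPM and with sample weights the median of all genes in HCC1500 shifted to -0.12. GABARAPL1 in HCC1500, at 0 to 10 reads, is limited by depth.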
